A study of Bos taurus and Bos indicus with 6 samples.

Results

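The DQ genes of the bovine major histocompatibility complex, called BoLA, were read in circulating white blood cells of 3 Holstein and 3 Brahman cattle. Members were the probe sets whose gene symbol in the platform annotation begins with BOLA-DQ, which gave 12 of 24016 tested probe sets and 5 of 9155 named genes: BOLA-DQA1, BOLA-DQA2, BOLA-DQA5, BOLA-DQB1 and BOLA-DQB. The group was chosen on the spread among animals and the breed difference of these probe sets, so both are given here as descriptions, with no test. All 6 animals were females aged 6 months under heavy challenge with the cattle tick Rhipicephalus microplus. The labels annotate the Holstein animals as Bos taurus and the Brahman animals as Bos indicus, and each array held the RNA of 1 animal. The cells were the whole pellet left after lysis of red cells in jugular blood, with no sorting and no culture. Arrays of uninfested cattle were not analysed here, so a difference that exists without ticks is part of every value.

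An MHC class II molecule pairs an alpha chain with a beta chain and shows peptides from engulfed material to CD4 T cells. DQA genes encode alpha chains and DQB genes encode beta chains of the DQ molecule. In blood, class II is found mainly on B cells, monocytes and dendritic cells. In cattle the DQ genes are highly polymorphic, and the number of DQA and DQB genes differs between haplotypes, the sets of alleles inherited together on a chromosome. In the order of genes that RefSeq gives for the ARS-UCD2.0 cattle assembly, BOLA-DQA2, BOLA-DQB, BOLA-DQA5, BOLA-DQB1 and LOC100848815 stand next to each other, and BOLA-DRB3 comes next. The Entrez identifier of BOLA-DQA1 has no entry there, and BoLA-DQA1 is listed as a synonym of LOC100848815.

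Values are log2 RMA values, in which 1 unit is a doubling of signal. The lower quartile of an array lay between 5.03 and 5.11 and its upper quartile between 8.12 and 8.17, and a reading near the lower quartile is not shown to be above background. A short-probe array reads a transcript only where the transcript matches the probes. Less transcript, a transcript of another sequence, fewer cells of a type and less RNA per cell therefore cannot be told apart from a value. By the array maker's naming, a probe set ending in _at is meant for a single transcript and one ending in _a_at for several transcripts of a gene. The ending _s_at marks probes shared by transcripts of different genes, and _x_at marks probes that may bind other sequences. DQ genes are close relatives, so the assignment of a reading to a gene within the family is uncertain for all 12 probe sets. Where a gene has several probe sets they are told apart by a letter, in the order of their array identifiers, as in DQB1-a to DQB1-e; the plots of values give the identifier beside each letter.

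The DQ probe sets of widest spread differed between animals far more than between breeds. DQA2-a, for example, had a within-breed SD of 4.30 and a breed difference of -0.32. In other DQ probe sets these were closer in size, as in BOLA-DQB, with an SD of 1.07 and a difference of 1.02. Several probe sets read near the top of the array in some animals and near its lower quartile in others, and animals of both breeds stood on each side. Of the 12 probe sets, 10 were among the 100 with the widest within-breed spread on the whole array, and the first 4 places of that ranking were held by BOLA-DQA2, BOLA-DQB1, BOLA-DQB1 and BOLA-DQA2 probe sets. Within-breed SD ran from 0.31 to 4.30 over the 12, with a median of 1.78, beside a median of 0.15 and a 99th percentile of 0.64 over all tested probe sets. The breeds overlapped in all 12 probe sets, while they did not overlap in 20.0% of all tested probe sets.

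**Figure D1:**
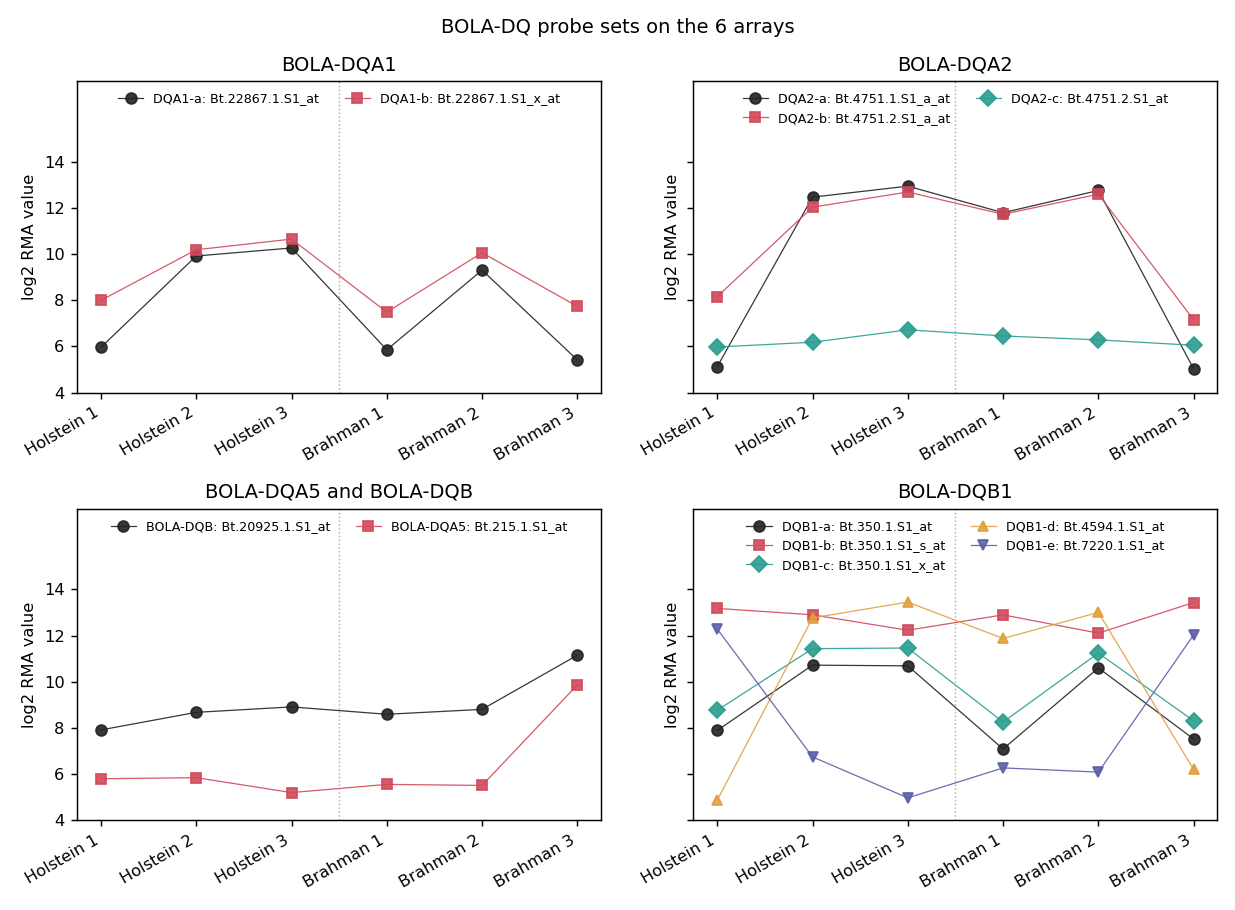
Log2 RMA value (vertical axis) of each of the 12 BOLA-DQ probe sets on each of the 6 arrays (horizontal axis), in panels by gene; each point is 1 animal, lines only join the points of a probe set, and the dotted line divides the breeds. DQA2-a stood at 5.12 on Holstein 1 and 5.03 on Brahman 3 and at 11.79 or more on the other 4 arrays, and DQB1-e did the reverse.

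Among the alpha chain genes, BOLA-DQA2 had the widest spread of the array. Its probe set DQA2-a, of the ending _a_at, read 5.12, 12.47 and 12.95 on Holstein 1, 2 and 3, and 11.79, 12.76 and 5.03 on Brahman 1, 2 and 3. Holstein 1 and Brahman 3 were low and the other 4 animals high, with a gap of 6.67 between Brahman 1 and Holstein 1 and no array inside it. Within the Holsteins, animal 3 read 226-fold above animal 1, and within the Brahmans, animal 2 read 212-fold above animal 3. Both low readings lie at the lower quartile, so these folds are uncertain in size. The breed means were 10.18 ± 4.38 in Holstein and 9.86 ± 4.21 in Brahman (SD, n = 3 each), a difference of -0.32 (Brahman minus Holstein, SE 3.51). With the mean of the hybridisation spike-in controls, RNA added to each sample before hybridisation, as a further term in the fit, it became 2.97. That mean was 9.94 to 10.38 on the Holstein arrays and 9.64 to 9.80 on the Brahman arrays, without overlap. The covariate thus largely follows breed, and the 2 cannot be told apart well. Differences with this covariate, here and below, show how unstable the estimates are and are not corrected breed effects.

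The other BOLA-DQA2 probe set of that ending, DQA2-b, divided the animals in the same way. It read 8.16, 12.03 and 12.69 in the Holsteins and 11.73, 12.60 and 7.16 in the Brahmans. Its low readings were above the array medians of 6.54 to 6.61, unlike those of the first probe set. The third BOLA-DQA2 probe set, DQA2-c, of the ending _at, stayed between 5.97 and 6.72 on all 6 arrays and showed no such division. It ranked 2420 in within-breed spread, and the animals that were low on the other BOLA-DQA2 probe sets were its lowest as well, Holstein 1 at 5.97 and Brahman 3 at 6.05.

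BOLA-DQA1 split the animals at another place. DQA1-a, of the ending _at, read 5.96, 9.92 and 10.26 in the Holsteins and 5.85, 9.31 and 5.41 in the Brahmans. Holstein 2, Holstein 3 and Brahman 2 were high, and Brahman 1, which was high for BOLA-DQA2, stood with Holstein 1 and Brahman 3 on the low side. The companion probe set DQA1-b, of the ending _x_at, gave the same division, at 8.0, 10.19 and 10.65 against 7.49, 10.06 and 7.73. The breed means of the first were 8.71 ± 2.39 in Holstein and 6.86 ± 2.13 in Brahman, a difference of -1.86 (SE 1.85). This is about as large as its error and reflects 2 high animals in one breed and 1 in the other. With the level of the spike-in controls, which largely follows breed, as a covariate it changed sign, to 0.79, and that of DQA1-b to 0.37.

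BOLA-DQA5 was high in a single animal. Its probe set read 9.87 on Brahman 3 and between 5.20 and 5.84 on the other 5 arrays, a gap of 4.02. Brahman 3 was low on the 2 BOLA-DQA2 probe sets of the ending _a_at and on both BOLA-DQA1 probe sets. The Brahman mean of 6.98 ± 2.50 against 5.61 ± 0.36 in Holstein rests on that animal: the difference was 1.36 with it and -0.08 without it. With the spike-in controls in the fit of all 6 arrays it was 2.85.

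One further probe set is annotated to both LOC100848815 and BOLA-DQA1, so it falls outside the rule and was singled out after its values were seen. It read 5.98, 5.72 and 5.26 in the Holsteins and 10.81, 10.99 and 5.42 in the Brahmans. Brahman 1 and Brahman 2 were therefore high and the other 4 animals low, a division that no member showed. Its within-breed SD of 2.26 ranked 7 on the array.

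Among the beta chain genes, BOLA-DQB1 was read by 5 probe sets, and they fell into 4 different patterns. DQB1-d, of the ending _at, read 4.87, 12.77 and 13.45 on Holstein 1, 2 and 3, and 11.88, 13.01 and 6.20 on Brahman 1, 2 and 3. This is the division seen for BOLA-DQA2, with Holstein 1 and Brahman 3 low. It spanned 8.58 log2 units, the widest range of any tested probe set, and Holstein 3 read 384-fold above Holstein 1. The reading of Holstein 1 is under the lower quartile of its array, so the range and the fold are uncertain in size. The breed means were 10.36 ± 4.77 in Holstein and 10.36 ± 3.65 in Brahman, a difference of -0.0032 (SE 3.47), which became 4.01 with the spike-in controls in the fit.

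DQB1-e, also of the ending _at and annotated to the same gene, ran the other way. It read 12.29 on Holstein 1 and 12.03 on Brahman 3, and 6.74, 4.97, 6.27 and 6.09 on Holstein 2, Holstein 3, Brahman 1 and Brahman 2. The 2 animals that were low on DQB1-d were thus the only high ones here, with a gap of 5.29. Every one of the 6 animals was high on one of these probe sets and low on the other. The breed means were 8.0 ± 3.82 and 8.13 ± 3.38, a difference of 0.13 (SE 2.94), or -1.95 with the spike-in controls in the fit.

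DQB1-a, of the ending _at, and DQB1-c, of the ending _x_at, shared the division of BOLA-DQA1. The first read 7.89, 10.72 and 10.69 in the Holsteins and 7.09, 10.60 and 7.52 in the Brahmans. The second read 8.77, 11.44 and 11.46 in the Holsteins and 8.26, 11.24 and 8.31 in the Brahmans. Holstein 2, Holstein 3 and Brahman 2 were high on both, and Brahman 1 was the lowest array on both. Their breed differences were -1.36 (SE 1.45) and -1.28 (SE 1.33), and 0.77 and 0.62 once the same covariate was fitted.

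The remaining BOLA-DQB1 probe set, DQB1-b, of the ending _s_at, has probes shared between genes and was bright in all 6 animals. It read 13.18, 12.90 and 12.23 in the Holsteins and 12.90, 12.11 and 13.43 in the Brahmans. These readings lay between percentiles 98.96 and 99.61 of their arrays. Brahman 3 and Holstein 1 were its highest arrays and Brahman 2 and Holstein 3 its lowest. It differed by 0.04 between the breeds (SE 0.48) and ranked 324 in spread.

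BOLA-DQB, the fifth symbol, was highest in the animal that was high for BOLA-DQA5. Its probe set read 11.15 on Brahman 3 and 8.59 and 8.81 on the other Brahmans, and 7.91, 8.68 and 8.91 on the Holsteins. Unlike BOLA-DQA5 it stood at percentile 71.8 of its array or above in all 6 animals. Its gap of 2.24 below Brahman 3 was narrower than that of BOLA-DQA5, and the Brahman mean was 9.52 ± 1.42 against 8.50 ± 0.52 in Holstein. The difference of 1.02 fell to 0.20 without Brahman 3, and was 2.34 with the spike-in controls in the fit.

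Some alpha and beta chain probe sets thus shared their patterns across animals, and others did not. DQA2-a and DQB1-d had a Pearson r of 0.99 over the 6 arrays. DQA1-a and DQB1-c also had 0.99. BOLA-DQA5 and BOLA-DQB had 0.91, set by Brahman 3 alone. The opposed probe sets DQB1-d and DQB1-e had -0.99. With alpha chain probe sets, DQB1-e had -0.99 for DQA2-a and at most 0.67, for BOLA-DQA5. DQB1-b had -0.78 with DQA1-a, -0.81 with DQA2-a and 0.68 with BOLA-DQA5. These values describe 6 arrays that fall into high and low readings, and probe sets that may share targets, so no p-value is attached.

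Placing each array above or below the widest gap of the 10 probe sets whose SD over the arrays was at least 1 gave each animal a profile. The 10 were kept for their wide spread and are not separate agreements. DQA1-a, DQA1-b, DQB1-a and DQB1-c shared a division, and so did BOLA-DQA5 and BOLA-DQB. DQA2-a, DQA2-b and DQB1-d also shared a division, which DQB1-e reversed. Holstein 2, Holstein 3 and Brahman 2 stood on the same side in 10 of 10. Brahman 3 stood opposite to these 3 animals in all 10. Holstein 1 shared 8 of 10 with Brahman 3, the exceptions being BOLA-DQA5 and BOLA-DQB, and was above the gap only for DQB1-e. Brahman 1 shared 6 of 10 with Holstein 1, Holstein 2, Holstein 3 and Brahman 2, and 4 with Brahman 3.

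The mean absolute difference over the 12 probe sets gave the same picture without a division into sides. The nearest pair was Holstein 2 and Brahman 2, of different breeds, at 0.35 log2 units, followed by Holstein 3 and Brahman 2 at 0.39 and Holstein 2 and Holstein 3 at 0.55. The farthest pair was Holstein 3 and Brahman 3 at 4.22. Over the 6 pairs within a breed the median was 2.89, and over the 9 pairs between breeds it was 1.75. The pairs share animals and are not independent. Holstein 1 and Brahman 3, of different breeds, were 1.00 apart and far from most other animals, and the order of the medians depends on where they fall. It does not show that animals of a breed are less alike than animals of different breeds. Over all tested probe sets, the mean absolute difference lay between 0.18 and 0.27 for every pair of arrays.

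**Figure D2:**
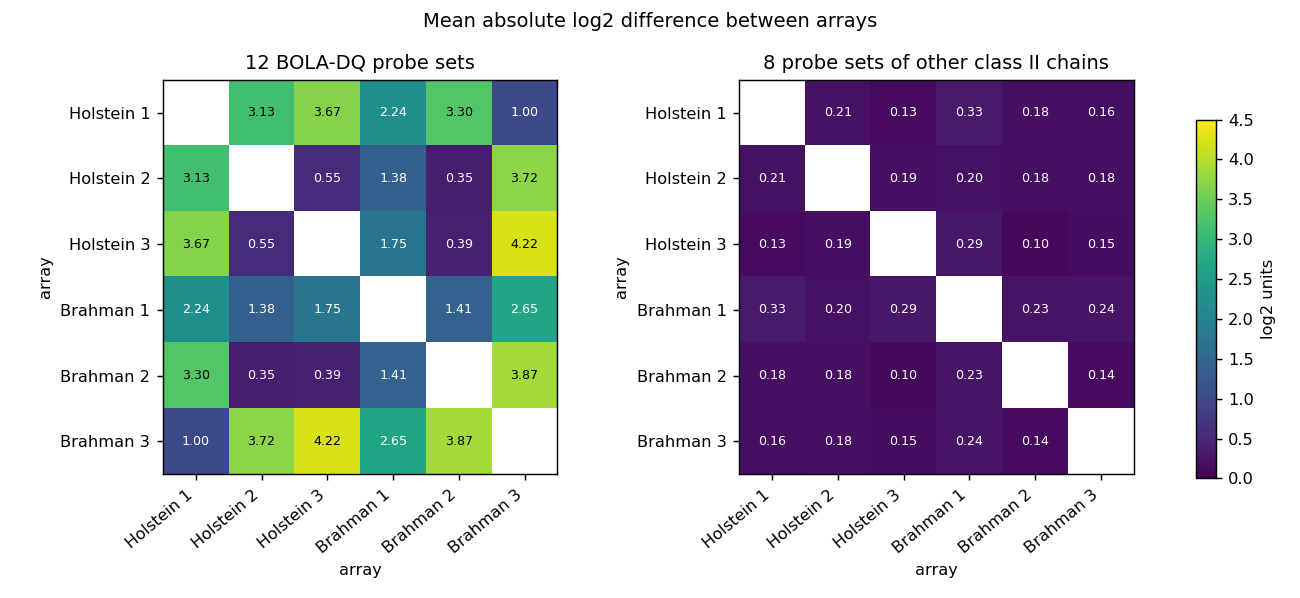
Mean absolute log2 difference between each pair of the 6 arrays (rows and columns, colour and printed value in log2 units) over the 12 BOLA-DQ probe sets (left) and over the 8 probe sets of other class II chains (right). On the left, values run from 0.35 for Holstein 2 and Brahman 2 to 4.22 for Holstein 3 and Brahman 3, and on the right none exceeds 0.33.

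Leaving out single animals moved the breed difference of the widest DQ probe sets through zero. For DQB1-d it ran from -2.75 without Holstein 1 to 2.08 without Brahman 3, and for DQA2-a from -2.85 to 2.10 without the same animals. For DQB1-e it ran from 2.27 without Holstein 1 to -1.82 without Brahman 3. The BOLA-DQA1 probe sets and DQB1-a and DQB1-c stayed lower in Brahman in each such fit, with differences from -3.23 to -1.08 for DQA1-a. Holstein 2, Holstein 3 and Brahman 2 were high on all of them, so the high share stays larger in Holstein whichever animal is left out. The constant sign follows from that shared division and does not show a stable breed difference.

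The other class II chains did not show these divisions. BOLA-DRA, the alpha chain gene of the DR molecule and the partner of BOLA-DRB3, read 13.54, 13.48 and 13.46 in the Holsteins and 13.33, 13.40 and 13.40 in the Brahmans, a range of 0.21. BOLA-DRB3 read between 12.76 and 13.06 on DRB3-b. On its other probe set, DRB3-a, Brahman 1 was low at 10.60 and the other 5 arrays lay between 11.28 and 11.73. BOLA-DMA and BOLA-DMB, which encode the molecule that loads peptides onto class II, stayed between 10.93 and 11.33 and between 11.30 and 11.78. BOLA-DOA, a chain of the modulator of that loading, stayed between 9.11 and 9.45. BOLA-DYA and BOLA-DYB, ruminant class II genes, read below 5 on every array and are not shown to be above background. Within-breed SD over these 8 probe sets ran from 0.04 to 0.44, with a median of 0.11.

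**Figure D3:**
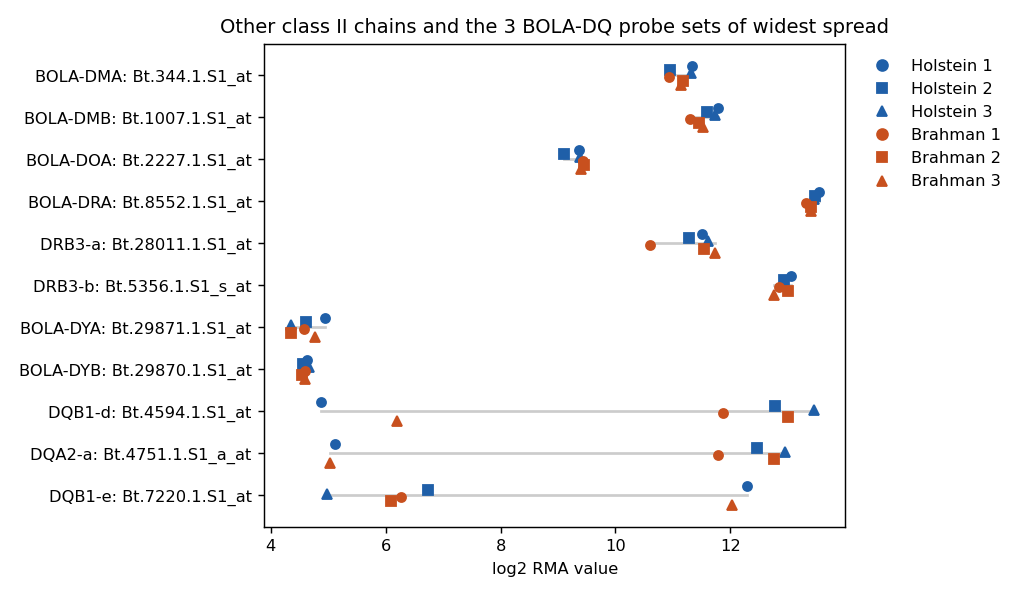
Log2 RMA value (horizontal axis) on each of the 6 arrays, with colour for breed and symbol for animal, for the 8 probe sets of other class II chains and the 3 BOLA-DQ probe sets of widest within-breed spread; grey bars span the lowest to the highest array. BOLA-DRA spans 0.21 log2 units, and DQB1-d spans 8.58.

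Breed differences of the other class II chains were small in limma's fit over all probe sets, whose Benjamini-Hochberg adjusted p was under 0.05 in 0 of the 8. That rule called 0.137% of all tested probe sets, and 1 of the 8 reached an unadjusted p under 0.05, beside 13.6% of all. BOLA-DMB averaged 11.43 ± 0.12 in Brahman and 11.70 ± 0.09 in Holstein, a difference of -0.28 (SE 0.10, limma adjusted p = 0.308), and the breeds did not overlap. BOLA-DRA differed by -0.11 (SE 0.08, limma adjusted p = 0.596) and BOLA-DOA by 0.14 (SE 0.10, limma adjusted p = 0.586), also without overlap. The breeds thus did not overlap in 3 of the 8, beside 20.0% of all tested probe sets. For BOLA-DRB3 the differences were -0.10 and -0.18, for BOLA-DMA -0.11, for BOLA-DYA -0.07 and for BOLA-DYB -0.03. The median over the 8 was -0.10, beside 0.02 over all tested probe sets.

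**Figure D4:**
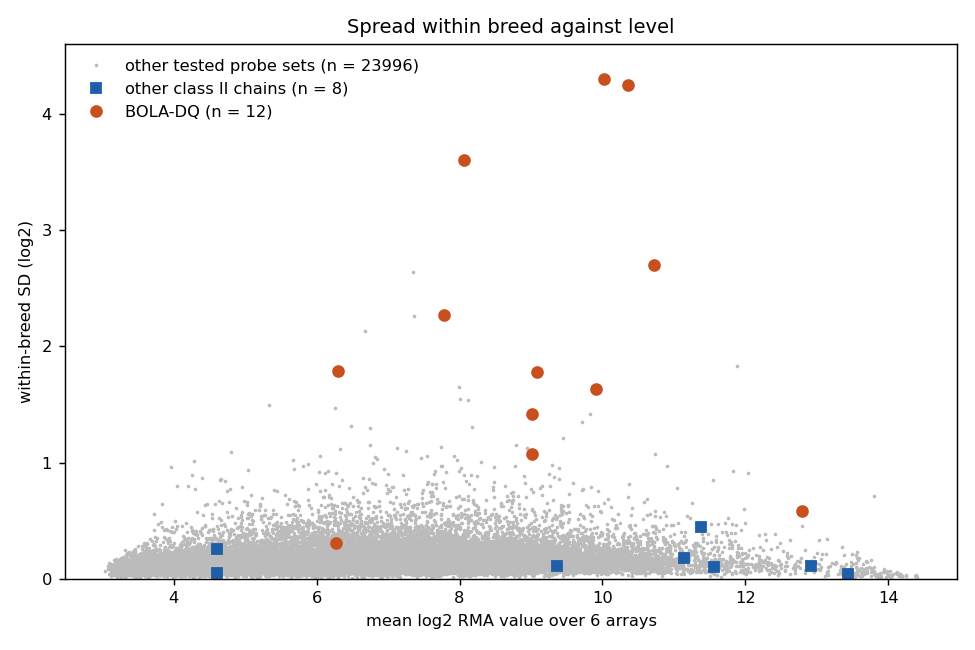
Within-breed SD (vertical axis, log2) against the mean log2 RMA value over the 6 arrays (horizontal axis) for every tested probe set, with the 12 BOLA-DQ probe sets and the 8 of other class II chains marked. The DQ points reach 4.30, while the other class II chains stay at 0.44 or below. Of these chains, only BOLA-DOA lies within the mean levels of the widest DQ points. The others lie above or below them, so the contrast is not matched for level.

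Genes that act around class II varied less between animals than most DQ probe sets, whose median range was 4.15. The list means below average several probe sets, which narrows their range. Single probe sets of CTSB and CD86, described below, spanned 1.07 and 1.06. The list of class II transcription factors held 11 probe sets of 7 genes, and its mean ranged over 0.14 log2 units across the 6 arrays. By limma 0 of the 11 were called (0.137% of all tested), and 1 reached an unadjusted p under 0.05, lower in Brahman (6.47% of all tested). This was IRF8, an interferon regulatory factor of B and myeloid cells, at -0.30 (limma adjusted p = 0.274), while its other probe set differed by -0.10. RFX5, a subunit of the complex that binds the class II promoter X box, differed by -0.24 on one probe set and 0.0051 on the other, and NFYA, a subunit of the CCAAT-binding factor, by -0.18.

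The list for class II peptide supply and turnover held 21 probe sets of 11 genes, with 0 called and 8 at an unadjusted p under 0.05, of which 5 were lower in Brahman (6.47% of all tested) and 3 higher (7.12% of all tested). The smallest p-values were those of 2 probe sets of the lysosomal protease gene CTSB, at -0.50 and -0.53, and of the protease gene CTSH at -0.51, with limma adjusted p-values from 0.261 to 0.296. The probe sets of CTSB disagreed, since the other 4 differed by -0.36, 0.0003, 0.17 and 0.25, the last 3 at levels under 6. The list mean ranged over 0.21 across arrays. The list of costimulatory genes and receptors held 18 probe sets of 10 genes, with 0 called and 5 at an unadjusted p under 0.05, 1 lower (6.47% of all tested) and 4 higher (7.12% of all tested). CTLA4, an inhibitory T cell receptor, differed by 0.43, the costimulatory receptor gene CD28 by 0.56 and CD4, the T cell coreceptor that binds class II, by 0.50 (limma adjusted p-values of 0.138, 0.142 and 0.256), each on the probe set of smallest p-value. The other probe sets of these genes differed by 0.34, 0.39 and 0.04. CD86, a ligand of CD28, differed by -0.66 over all 6 arrays (limma adjusted p = 0.274). It read 9.26, 9.13 and 8.38 in the Holsteins and 8.20 to 8.31 in the Brahmans. Only without Holstein 3, the Holstein nearest to the Brahmans, was it called lower in Brahman, at -0.94 (limma adjusted p = 0.0464). Over these 3 lists and the other class II chains, limma called 0 of 58 probe sets, and 25.9% reached an unadjusted p under 0.05, beside 13.6% of all tested probe sets.

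Lists of markers of the blood cells that carry class II had means that ranged over 0.27 to 0.35 log2 units across the animals. Averaging narrows these ranges, and they are not like for like with those of single DQ probe sets. Single marker probe sets ranged over up to 1.46 in the B cell list (BLK), 1.71 in the monocyte list (VCAN) and 1.57 in the dendritic cell list (FCER1A). The B cell genes MS4A1 and CD79A, which encode CD20 and a chain of the B cell receptor complex, read between 11.94 and 12.94 and between 10.20 and 10.78. Other markers were near the lower quartile, such as CD1B, an antigen-presenting molecule gene of the dendritic cell list, at 4.45 to 5.26. The mean of the B cell list, 11 probe sets of 9 genes, was 9.21, 9.12 and 9.34 on the Holstein arrays and 9.19, 9.42 and 9.24 on the Brahman arrays. The mean of the monocyte list (12 probe sets) ranged over 0.35 log2 units across the arrays and that of the dendritic cell list (5 probe sets) over 0.27. Holstein 1, low on BOLA-DQA2 and BOLA-DQA1, had the highest monocyte mean at 7.71 and the lowest dendritic cell mean at 7.05. The dendritic cell markers disagreed on that array. A probe set of FCER1A read 5.15 there and 6.54 to 6.72 elsewhere. CADM1, of the same list, was highest there, at 9.21 against 7.89 to 8.75. Brahman 3 had the highest dendritic cell mean, at 7.32. Whether these had a part in the DQ readings was not tested.

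By breed, 0 probe sets of these marker lists were called by limma, and the counts at an unadjusted p under 0.05 stand beside 6.47% lower and 7.12% higher of all tested. Counts by sign stand beside 10699 lower and 13317 higher of all 24016 tested. In the B cell list 7 of 11 were lower in Brahman by sign, with a median of -0.11, and 2 reached that p, both higher: the kinase gene BLK (0.97) and a probe set of the complement receptor gene CR2 (0.35). FCER2, the low-affinity IgE receptor gene, differed by 0.31, MS4A1 by -0.14 and -0.21 and CD79A by -0.23. In the monocyte list 8 of 12 were lower by sign, with a median of -0.20, and 3 lower and 3 higher reached that p. The higher ones were the probe sets of VCAN, a matrix proteoglycan gene, at 0.92, 1.03 and 1.06. The lower ones were CD14, the endotoxin coreceptor gene, at -0.94 and -0.67, and the scavenger receptor gene MSR1 at -0.46. In the dendritic cell list TCF4, a transcription factor gene, differed by -0.38 and the IgE receptor chain gene FCER1A by 0.29 and 0.44. The T cell list (20 probe sets) had 17 higher and 3 lower by sign, and 9 higher and 1 lower at that p. The lower one at that p was a CD2 probe set at -0.72, while the other CD2 probe sets differed by 0.40 and 0.07, and CD3E differed by 0.54. The T cell adaptor gene LAT differed by 0.45, 0.54 and 0.19 on its probe sets. The neutrophil list had 0 of 10 at an unadjusted p under 0.05 (S100A12 -0.41, FCGR2B -0.25, CAMP -0.12), and the red cell and platelet list 1 lower and 1 higher of 10 (an HBB probe set that read 4.00 or less at 0.52, ALAS2 -0.56, PF4 -0.60). The other HBB probe sets, of the beta-globin gene, differed by 0.12, -0.37 and -0.17. The hybridisation spike-in controls stood at 10.14 ± 0.22 on the Holstein and 9.72 ± 0.08 on the Brahman arrays (SD, n = 3 each). Every Holstein array was above every Brahman array. Their part in the DQ differences therefore cannot be told apart from that of breed, and was not tested.

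Outside the DQ family, the genes most like each DQ probe set were sought among 370 probe sets with 1 gene symbol, a mean of at least 6 and an SD of at least 0.5, by Pearson r over the 6 arrays. With 6 arrays and 370 candidates high values arise easily, so these are descriptions only. LOC526041 came first for DQB1-d and both BOLA-DQA2 probe sets of the ending _a_at, with r from 0.91 to 0.96. It read 5.33 on Holstein 1 and 5.92 on Brahman 3, and 7.15 to 7.60 on the other 4 arrays, the same division as BOLA-DQA2 over a narrower range. SPDEF, an epithelial transcription factor gene, came second for all 3, with r from 0.79 to 0.87.

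For the BOLA-DQA1 probe sets, DQB1-a and DQB1-c, the same 4 genes were named each time: BRB, SPRYD7, the small heat shock protein gene HSPB8 and ZBTB44, with r from 0.82 to 0.90. BRB, a ribonuclease gene, read 8.55 and 8.90 on Holstein 2 and 3, 6.34 on Brahman 2 and 5.17 to 5.81 on the other 3 arrays. For BOLA-DQA5 and BOLA-DQB, SRI, which encodes the calcium-binding protein sorcin, and the lens crystallin gene CRYGS had r from 0.96 to 0.98. SRI read 9.97 on Brahman 3 and 7.36 to 7.97 elsewhere, and CRYGS read 7.21 on Brahman 3 and 5.63 to 5.90 elsewhere. These r values rest largely on Brahman 3. By Spearman rho, CRYGS had -0.14 with BOLA-DQA5 and 0.83 with BOLA-DQB, and SRI had 0.37 and 0.49. For DQB1-e the nearest was ADAMDEC1, a metalloprotease gene, with r of 0.82, at 7.07 on Holstein 1 and 6.94 on Brahman 3, and 6.73 on Holstein 2.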

How the data were processed

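The deposited table holds 24128 probe sets on 6 Affymetrix bovine arrays as log2 values, which the authors computed with RMA per the submitters' processing notes (version not stated). This method corrects background, normalises arrays by quantiles and summarises probes, which would remove a global change in RNA. No scanner intensities or detection calls were used. Of the probe sets, 112 array controls were left out and 24016 tested; the platform annotation gives 1 gene symbol for 13292, several for 86 and none for 10638. Brahman was compared with Holstein with limma 3.58.1 in R 4.3.3 (breed as the only term, two-sided, Benjamini-Hochberg over 24016, called under 0.05), and the fit was tested on simulated data. Replicates are different animals, 3 per breed, which limits the precision. The SE of a DQ difference comes from the pooled within-breed SD, because limma's moderated SE is smaller for probe sets of such spread.

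Members, the 10 gene lists (138 genes, 82 measured) and the rule for named genes were chosen with earlier results of these data known. That rule took every DQ probe set, every other class II chain, the 3 smallest p-values and any call of each other list, and the 5 genes most like each DQ probe set of SD at least 1. CD86 is named because it was the only list member called without an array, and MS4A1 and CD79A as B cell checks. CADM1, CD1B, CD14, MSR1 and the further probe sets of named list genes are given to show where a list or gene disagrees. All of these were chosen after their values were seen. Same-numbered animals of the breeds are not stated to be related, and the correlations of their deviations from the breed means were 0.11, -0.04 and -0.07. Alternatives were other normalisations, a dim filter, another prior, each array left out, a replicate block and the spike-in level as a covariate.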

Additional observations from a re-analysis of the deposited data

How the results depend on the processing

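Subtracting array medians or normalising by quantiles again moved no DQ breed difference by more than its within-breed SD, though 1 of the 12 changed sign with renewed quantile normalisation. A replicate block leaves the difference of a balanced design unchanged. With 3 animals per breed, leaving out 1 cannot move a difference by more than that SD. Neither is therefore a check of these differences. Without an array 0 to 7 of the 12 changed sign (7 without Brahman 3, 6 without Holstein 3). With the level of the spike-ins as covariate the differences became 2.34 for BOLA-DQB, 0.79 and 0.37 for DQA1-a and DQA1-b, and 0.77 and 0.62 for DQB1-a and DQB1-c. They became 4.01 for DQB1-d, 2.97 and 0.88 for DQA2-a and DQA2-b, -1.95 for DQB1-e and 2.85 for BOLA-DQA5. Each of these last moves was within the within-breed SD of its probe set. Of the 12 differences, 8 changed sign, and the cause was not tested. The spike-in level was higher on every Holstein array than on every Brahman array, so covariate and breed cannot be told apart well. With that covariate limma called 0 of all probe sets (2400 at an unadjusted p under 0.05), and among the genes around class II 8 rather than 15 reached an unadjusted p under 0.05. BOLA-DMB, the 1 of the other class II chains at that level, was not reached (0) with the covariate or with renewed quantile normalisation. With the replicate block, limma called 10 probe sets in place of 33; the numbers are not shown to pair the animals. Without single arrays the calls ran from 5 to 55, those around class II from 0 to 1, their unadjusted count from 7 to 17, and that of the other class II chains from 0 to 1. Among the 100 widest spreads 8 to 10 DQ probe sets stayed. By Spearman rho in place of Pearson r, 18 of the 50 likeness names were shared. Levels near the lower quartile limit every fold, since no detection call was used.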
